A study of Mus musculus with 10 samples.

Results

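Melanocytes (Mc) of the mouse hair follicle were compared with the dermal fraction (DF) of the same skin, on 2 Affymetrix arrays of Mc and 2 arrays of DF out of the 10 arrays of the series. The arrays were chosen by their titles, and every probe-set that is not a manufacturer's control entered the comparison. Both populations were sorted from the dermis of backskins of 4-day-old mice that carried 2 transgenes, K14-H2BGFP, in which the keratin 14 promoter drives a green nuclear reporter in skin epithelium, and Lef1-RFP, in which a fragment of the human Lef1 promoter drives a red reporter, here strong in the dermal papilla and in Mc. Mc were the RFP-high, GFP-negative and CD117-positive cells, taken in a labeling of their own. DF was negative for RFP and GFP, and was sorted after magnetic removal of cells carrying CD117, CD45 or CD34. Skins were pooled for a preparation, neither population received a treatment, and the methods describe DF as enriched in fibroblasts and not as a single cell type. Since Mc and DF were labeled and depleted by different procedures, an effect of the procedure cannot be told apart from a difference of population.

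Follicle melanocytes descend from the neural crest, make melanin in melanosomes, which are relatives of the lysosome, and hand it to the cells that build the hair shaft. Schwann cells of cutaneous nerves descend from the same crest precursors, and both lineages use the transcription factor Sox10. Endothelin receptor type B, which answers endothelins released by neighbouring cells, is needed for melanoblasts to survive and migrate, while the dermis around them holds fibroblasts, blood and lymphatic vessels, pericytes, smooth muscle and nerves.

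Each value below is a signal, the linear intensity that the MAS 5.0 algorithm gave a probe-set, as the authors deposited it. A gene was read from its probe-set with the highest mean over all 10 arrays. Differences are Mc minus DF on the log2(signal + 50) scale, given ± SE, with folds on the same scale, so folds of dim genes come out smaller than the ratio of their signals. A difference was called where limma's adjusted p, over all 22626 probe-sets, was under 0.05 and the fold at least 2. With 2 arrays in each population an exact permutation test of one gene cannot give a p below 0.333, so every adjusted p rests on a spread pooled over the 5 populations and all probe-sets, and measures the spread between these preparations. Where arrays of Mc and DF are said not to overlap, that alone is likewise weak evidence. A gene was taken as detected in a population where both of its arrays reached 200.

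The trimmed mean signal over all probe-sets was 165 and 168 on the Mc arrays, against 191 and 197 on the DF arrays. Between 5582 and 5671 probe-sets of an Mc array reached 200, against 6325 and 6585 of the DF arrays. Pearson's r of the log2 values was 0.982 between the Mc arrays, 0.978 between the DF arrays and 0.847 to 0.863 across them. The genes used to sort followed the gates and are no results: Kit, which encodes CD117, had 2989 and 2651 in Mc, against 347 and 152 in DF, while Ptprc, which encodes CD45, and Cd34 stayed under 40 on all 4 arrays.

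Of the 22626 probe-sets, 575 were higher in Mc than in DF, or 2.54%, and 1671 were lower, or 7.39%. Read by gene, 337 of 12393 were higher in Mc (2.72%) and 1078 were lower (8.7%), and the median difference of all genes was -0.11. In bulk samples, fewer cells of a type and less RNA per cell cannot be told apart. The split of calls depended on the scaling: higher probe-sets made up 25.6% of the calls with the deposited signals, 35.8% with arrays rescaled to equal trimmed means (787 higher and 1409 lower) and 39.0% after quantile normalization (862 and 1350), which moved the median of all probe-sets by 0.14. Both scalings raised Mc against DF, so higher calls could hardly be lost, and the 575 higher probe-sets kept their call. Of the 1671 lower probe-sets, 1409 kept their call with rescaled arrays and 1350 after quantile normalization. No call of either direction turned.

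**Figure D1:**
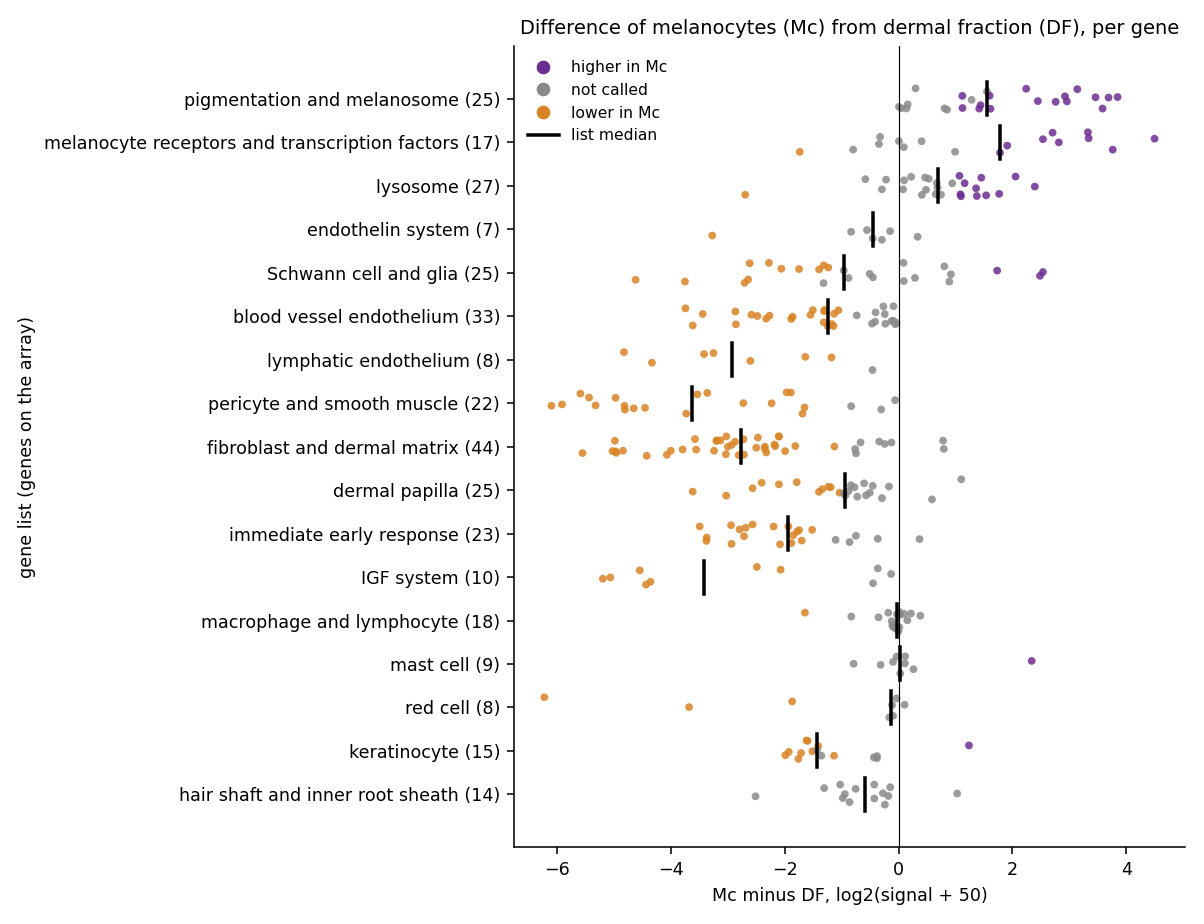
Each point is a gene, placed by its Mc minus DF difference in log2(signal + 50), in 17 gene lists whose number of genes on the array stands in brackets. The black bar is the median of a list, and it lies to the right for pigment genes (1.55) and to the left for pericyte and smooth muscle (-3.64), fibroblast (-2.77) and lymphatic genes (-2.93).

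The 4 marker genes were chosen with earlier results of these data known, so their separation describes the populations and tests nothing. Mc1r, the melanocortin receptor that switches melanocytes to black pigment, had a signal of 2147 and 1635 in Mc, against 68.7 and 11.1 in DF. Gpr37, an orphan receptor also known from oligodendrocytes, had 1309 and 1134 in Mc, against 60.5 and 29.0 in DF. Both were far above their DF values on both Mc arrays, by 4.50 ± 0.35 (adjusted p = 0.000121) and 3.76 ± 0.21 (adjusted p = 2.60e-05). Ccdc80, a secreted matrix protein of fibroblasts and fat, had 51.1 and 61.2 in Mc, against 3683 and 2893 in DF. Lyve1, a hyaluronan receptor of lymphatic vessels, had 1.7 and 8.5 in Mc, against 1792 and 1279 in DF. Neither was detected in Mc, and the differences were -4.97 ± 0.24 (adjusted p = 1.55e-05) and -4.83 ± 0.18 (adjusted p = 7.05e-06). A second probe-set of each was lower in Mc as well.

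Most pigment genes were higher in Mc. Of 25 genes of pigmentation and the melanosome on the array, 16 were higher in Mc, none was lower and 9 were not called, with a median difference of 1.55. Slc45a2, a transporter of the melanosome membrane, had 6673 and 5379 in Mc, against 794 and 251 in DF, a difference of 3.58 ± 0.42 (adjusted p = 0.000823). Trpm1, a cation channel named for its loss in melanoma, had 2602 and 3611 in Mc, against 242 and 111 in DF, and Gpr143, the receptor mutated in ocular albinism, had 2175 and 2482, against 236 and 68.3. Both were over 10-fold higher in Mc (3.85 ± 0.42 and 3.69 ± 0.44). Tyr, tyrosinase, the enzyme that starts melanin synthesis, had 5829 and 5921 in Mc, against 1001 and 226 in DF, a difference of 3.46 ± 0.56 (adjusted p = 0.00389). Rab38, which guides melanosome enzymes, had 2799 and 2975 in Mc, against 369.9 and 214 in DF, and Oca2, a membrane protein that controls melanosome pH, had 1471 and 3048, against 402 and 123. Mlph, melanophilin, which links melanosomes to their motor, had 1203 and 1564 in Mc, against 174 and 107 in DF. For each of these genes both Mc values lay above both DF values.

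Signals of pigment genes in DF differed between its arrays, and with them the calls. Of the 25 genes, 19 were higher in DF replicate 1 than in DF replicate 2, and their summed signal was 48356 and 55775 in Mc, against 17732 and 7614 in DF. Dct, the dopachrome tautomerase of eumelanin synthesis, had 6471 and 7259.7 in Mc, against 5119.8 and 1512 in DF (1.28 ± 0.49, adjusted p = 0.117). Pmel, which forms the fibrils of the melanosome, had 6950.4 and 7318 in Mc, against 4174 and 1371 in DF (1.55 ± 0.58, adjusted p = 0.107). Neither was called, although both Mc arrays stood above both DF arrays, and both genes were detected in each population. Tyrp1, the third enzyme of the family, had 3919 and 4940.5 in Mc, against 1693 and 459 in DF, and was called higher at 4.73-fold (adjusted p = 0.0321). Without DF replicate 1, 18 of the 25 genes were called higher in Mc, and without DF replicate 2, 13 were. The trafficking genes Ap3b1, Ap3d1 and Bloc1s6, which serve lysosome-related organelles in most cells, were detected in both populations and not called.

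**Figure D2:**
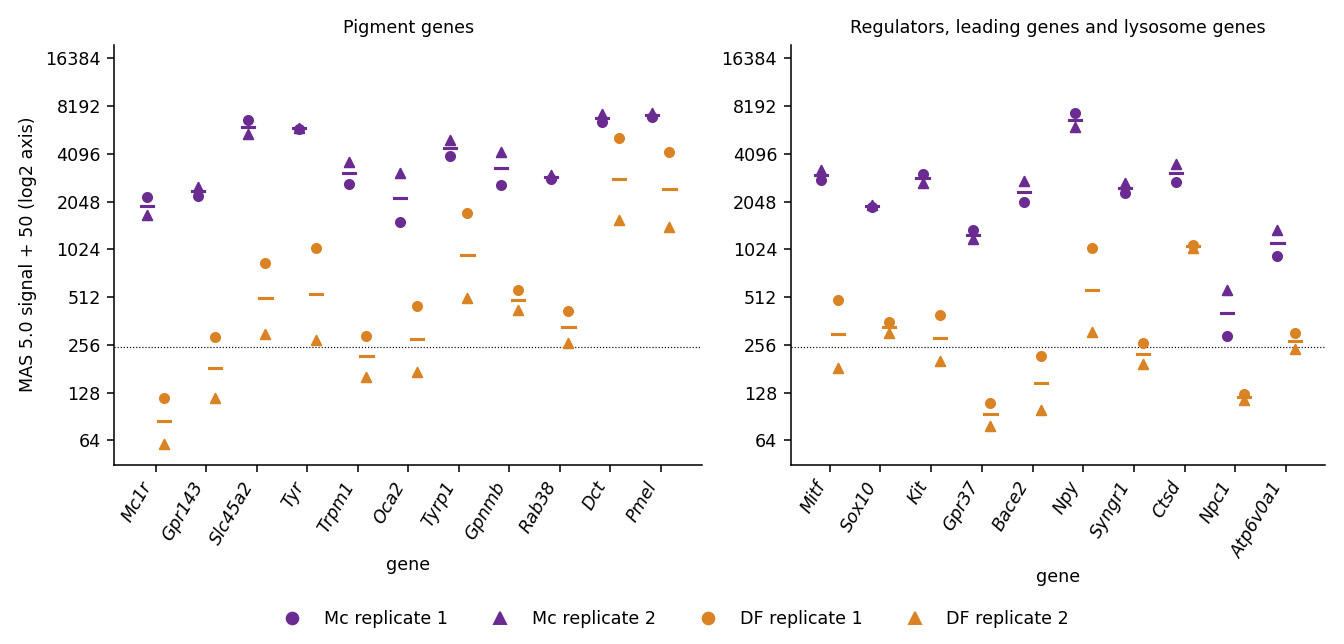
Signal + 50 on a log2 axis for pigment genes on the left and for regulators, leading genes and lysosome genes on the right, with Mc in purple left of DF in orange, replicate 1 as circles, replicate 2 as triangles, bars at the mean of the log2 values and a dotted line where the signal is 200. DF replicate 1 lies above DF replicate 2 for each pigment gene drawn, and for Dct and Pmel it comes close to the Mc arrays.

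The promoters of these genes were searched for CATGTG, read on either strand, the form of the E-box that Mitf is known to bind in melanocyte genes. RefSeq promoter windows (GRCm38.p6), which run from 250 bases before a start site to 50 after it, were matched to 24 of the genes of the pigmentation list by symbol. Of their 29 windows, 10 held the motif (34.5%), in 9 genes, against 4650 of 32851 windows of all genes (14.2%). Shares of the other gene lists ran from 0% to 30.0%. The highest was that of the lymphatic list (3 of 10 windows), whose genes were mostly lower in Mc, so the motif was not particular to genes higher in Mc. A match is a description of the letters and not of binding. The stretches of 120 bases below lie upstream of the start site of Mc1r, the gene that led the comparison, and of 5 pigment genes described above, and are read 5′ to 3′ along the gene with the motif in capitals.
Mc1r: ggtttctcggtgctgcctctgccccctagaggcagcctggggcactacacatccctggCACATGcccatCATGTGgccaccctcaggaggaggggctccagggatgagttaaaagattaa
Trpm1: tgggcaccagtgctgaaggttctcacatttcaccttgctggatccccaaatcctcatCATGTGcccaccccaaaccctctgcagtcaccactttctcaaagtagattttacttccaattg
Tyr: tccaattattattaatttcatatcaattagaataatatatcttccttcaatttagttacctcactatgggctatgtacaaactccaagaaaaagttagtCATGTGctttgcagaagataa
Tyrp1: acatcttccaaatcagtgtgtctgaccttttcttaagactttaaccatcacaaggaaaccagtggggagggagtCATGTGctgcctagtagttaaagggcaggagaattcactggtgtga
Oca2: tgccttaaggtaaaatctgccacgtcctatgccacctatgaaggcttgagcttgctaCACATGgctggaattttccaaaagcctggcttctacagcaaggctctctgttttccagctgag
Dct: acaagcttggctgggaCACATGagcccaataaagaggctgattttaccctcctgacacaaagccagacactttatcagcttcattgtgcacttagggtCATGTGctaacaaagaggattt
They lie at chr8:123406962-123407081 (plus strand) for Mc1r, at chr7:64153637-64153756 (plus) for Trpm1, at chr7:87493513-87493632 (minus) for Tyr, at chr4:80834093-80834212 (plus) for Tyrp1, at chr7:56239516-56239635 (plus) for Oca2 and at chr14:118052375-118052494 (minus) for Dct. The Mc1r window held the motif on each strand, 62 and 51 bases before the start site, and the Dct window at 232 and 150 bases before it. In Tyr the motif began 21 bases, in Tyrp1 46 bases, in Trpm1 141 bases and in Oca2 186 bases before the start. Mc1r belongs to the list of receptors and transcription factors and not to the 24 genes counted above, and in that list 1 of 23 windows held the motif (4.35%). Of the 6, all but Dct were called higher in Mc, but they were picked and do not stand for all genes with the motif. Among other pigment genes that held it, Slc7a11 was called higher (3.06-fold). Cited1 and Hps1 were not called and lay under 200 on all 4 arrays. Whether the motif goes with the calls was not tested.

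Receptors and transcription factors of the melanocyte lineage were also largely on the side of Mc. Of 17 on the array, 9 were higher in Mc, 1 was lower and 7 were not called, with a median difference of 1.78. The 9 include Kit, which the gate on CD117 fixed, and without it 8 of 16 were higher, with a median of 1.39. The markers Mc1r and Gpr37 are among these 8. Mitf, the regulator of melanocyte fate, had 2736 and 3208 in Mc, against 443 and 133 in DF, a difference of 3.33 ± 0.48 (adjusted p = 0.00215). Pax3, which acts upstream of Mitf, had 1575 and 1633 in Mc, against 265 and 154 in DF, and Irf4, a pigmentation factor first known from lymphocytes, had 389.8 and 607, against 49.9 and 8.4. Tfap2a, a crest factor, had 811 and 754 in Mc, against 146 and 201 in DF. All of these were higher in Mc with no overlap of the arrays, by 6.52-fold for Pax3, 7.04-fold for Irf4 and 3.75-fold for Tfap2a. Fgfr1, an FGF receptor, was the member lower in Mc, at 48.8 and 37.6 in Mc, against 315 and 215 in DF. Foxd3, a factor of the early crest, had 182 and 164 in Mc, against 166 and 154 in DF, and was neither detected nor called.

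Among the 10 genes with the largest difference toward Mc, 4 lay outside these lists. Bace2, a protease that cleaves Pmel, had 1976 and 2707 in Mc, against 167 and 50 in DF, a difference of 4.00 ± 0.44 (adjusted p = 0.000613). Npy, the precursor of neuropeptide Y, had 7371 and 5968 in Mc, against 1002 and 259 in DF, with adjusted p = 0.00165. Syngr1, a synaptic vesicle protein, had 2285 and 2649 in Mc, against 212 and 144 in DF. The uncharacterised 4931406C07Rik had 3378 and 2335 in Mc, against 262 and 153 in DF. In all 4, as in the pigment genes, DF replicate 1 had the higher of the DF values.

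The endothelin system was shared at the receptor and not at the converting enzyme. Ednrb, endothelin receptor type B, had a signal of 1804 and 2582 in Mc, against 1976 and 1469 in DF. The arrays overlapped, the difference was 0.33 ± 0.30 (adjusted p = 0.523), and the gene was detected in both populations. A second Ednrb probe-set had 445 and 924 in Mc, against 503 and 323 in DF (adjusted p = 0.224), and overlapped likewise. The miss of the threshold does not show that the levels were equal, since the replicates of Ednrb differed in opposite directions, with the higher value in Mc replicate 2 and in DF replicate 1. Ednra, the other endothelin receptor, was not analysed here.

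Ece1, which cleaves the endothelin precursors to active peptides, had 10.7 and 10.9 in Mc, against 569.5 and 511 in DF. It was detected in DF alone and differed by -3.28 ± 0.18, 9.7-fold lower in Mc (adjusted p = 2.58e-05), and its second probe-set was lower too. The ligands were at low signal in both. Edn1 had 6.4 and 20.9 in Mc, against 57.3 and 68.9 in DF, with an adjusted p of 0.00406 and a fold of 1.79, under the limit of 2. Edn3, the ligand best known in melanoblast development, had 14.5 and 13.7 in Mc, against 44.7 and 31.7 in DF (adjusted p = 0.0605), whereas the dermal papilla arrays of the series had 491 and 609.9. Edn2, a further ligand, and the peptidases Ece2 and Kel lay under 101 on all 4 arrays and were not called. Of the 7 genes of the system on the array, 1 was lower in Mc, none was higher and 1, Ednrb, was shared, that is, detected in both and not called. Of all 12393 genes, 1078 were lower in Mc and 2591 were shared, so with 7 genes these counts do not set the system apart.

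**Figure D3:**
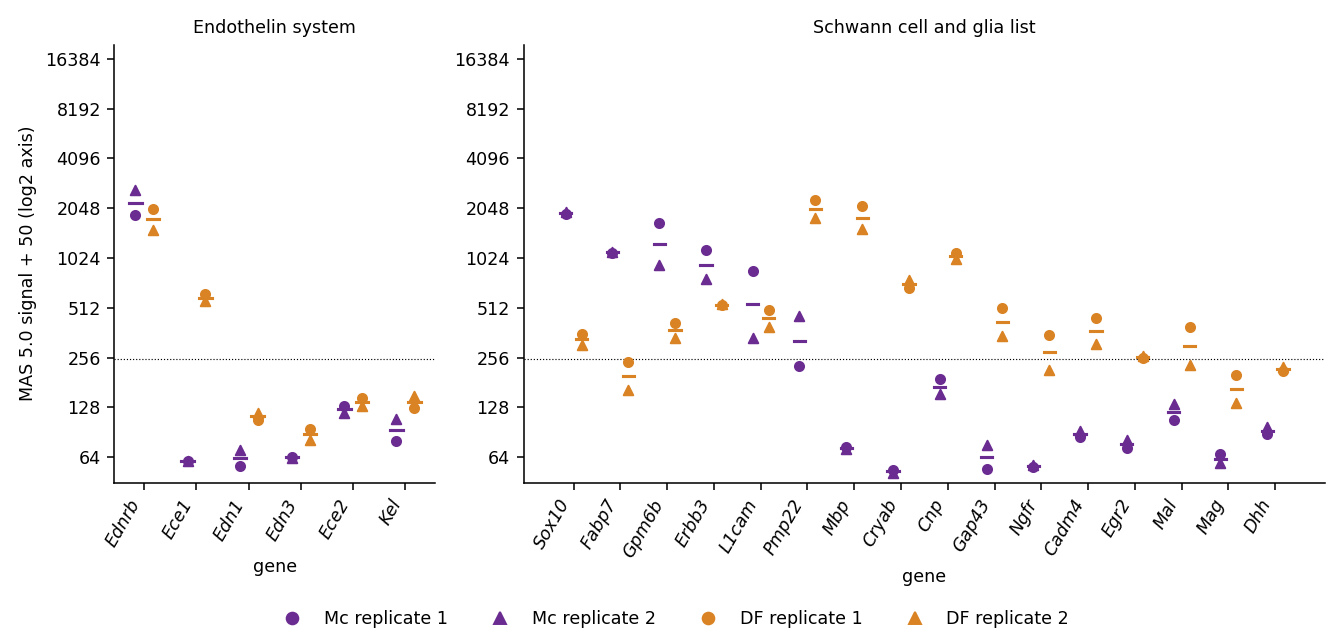
Signal + 50 on a log2 axis for the endothelin system on the left and for members of the Schwann cell and glia list on the right, with Mc in purple left of DF in orange, circles for replicate 1, triangles for replicate 2, bars at the mean of the log2 values and a dotted line where the signal is 200. Ednrb, Erbb3 and L1cam lie above the line on all 4 arrays, Sox10, Fabp7 and Gpm6b are higher in Mc, and the genes from Pmp22 onward are higher in DF.

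Glial transcripts divided between the populations. Of 25 genes of the Schwann cell and glia list on the array, 3 were higher in Mc, 11 were lower and 11 were not called, with a median difference of -0.97. The genes higher in Mc were Sox10, Fabp7 and Gpm6b. Sox10, the crest factor that both lineages use, had 1835 and 1894 in Mc, against 307 and 256 in DF (2.54 ± 0.10, adjusted p = 7.17e-06). Fabp7, a fatty acid binding protein of immature glia, had 1057 and 1072 in Mc, against 192 and 114 in DF (2.48 ± 0.20, adjusted p = 0.000129), and Gpm6b, a membrane glycoprotein of neurons and glia, had 1609 and 877, against 366 and 286. Sox10 and Gpm6b were detected in DF as well. One of the other Sox10 probe-sets was higher in Mc and another, under 85 on all 4 arrays, was not called.

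Several genes of myelin were among the 11 lower in Mc. Mbp, myelin basic protein, had 23.8 and 22.1 in Mc, against 2054 and 1490.5 in DF, a difference of -4.62 ± 0.35 (adjusted p = 0.000103), and 5 of its 7 other probe-sets were lower in Mc too. Cnp, an enzyme of myelin membranes, had 139.9 and 104 in Mc, against 1042 and 964 in DF. Pmp22, a protein of peripheral myelin that fibroblasts also make, had 177 and 409 in Mc, against 2241 and 1738 in DF. All of these were at least 6.15-fold lower in Mc with no overlap of the arrays. Cryab, a small heat shock protein of glia and muscle, had 4.0 and 1.4 in Mc, against 627 and 701 in DF, and Gap43, a growth protein of axons and Schwann cells, had 4.3 and 25.7, against 458 and 296. Ngfr, the neurotrophin receptor of immature Schwann cells, had 5.6 and 7.7 in Mc, against 299 and 167 in DF (-2.28 ± 0.30, adjusted p = 0.00151), and its other 2 probe-sets, at 39 or less on all arrays, were not called. Egr2, the factor that drives myelination, had 22.5 and 31.9 in Mc, against 206 and 214 in DF, and its second probe-set was not called. Egr2 is not glial alone: it is also counted among the immediate early genes below, and the outer root sheath arrays had 894 and 850. Other members were not particular to DF either. The dermal papilla arrays had 254 and 274.5 for Ngfr, 682 and 850 for Pmp22, 267 and 593 for Cnp and 170 and 443 for Mbp. Of these, all but Ngfr lay below both DF values. Mag, a myelin adhesion protein, and Dhh, the Schwann cell hedgehog ligand, were lower in Mc without reaching 200 on any array. Gjb1, a connexin of myelinating Schwann cells, lay on the side of Mc, at 59.9 and 52.6 in Mc, against 7.7 and 6.9 in DF (0.89 ± 0.09, adjusted p = 0.000325), below 200 on all arrays and with a fold of 1.85 under the limit.

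The members shared by both populations were Erbb3 and L1cam, 2 of 25, against 2591 of all 12393 genes. Erbb3, the neuregulin receptor of crest derivatives, had 1096 and 710.5 in Mc, against 483 and 488 in DF. Both Mc values lay above both DF values and the adjusted p was 0.0438, but the fold of 1.74 was under the limit. L1cam, an adhesion protein of axons, had 806 and 289 in Mc, against 446 and 344 in DF, with overlapping arrays (0.28 ± 0.40, adjusted p = 0.704), and without Mc replicate 1 the difference was -0.38. The median of DF replicate 1 minus DF replicate 2 over the list was 0.32, with 19 of 25 genes higher in DF replicate 1. Without DF replicate 1 the counts were 3 higher and 10 lower, and without DF replicate 2 they were 3 and 13. With rescaled arrays, and after quantile normalization, 5 were called higher in Mc.

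No vessel gene was higher in Mc. Of 63 genes on the array in the lists of blood vessel endothelium, lymphatic endothelium, and pericytes and smooth muscle, 47 were lower in Mc and 16 were not called, with a median difference of -1.89. Their summed signal was 3059 and 3269.9 in Mc, against 56793 and 65204 in DF. Of the 63, 31 were detected in DF and under 200 on both Mc arrays, and 1 was shared, against 764 and 2591 of all 12393 genes.

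Of 22 pericyte and smooth muscle genes, 19 were lower in Mc and 3 were not called, with a median difference of -3.64. Rgs5, a regulator of G protein signaling that marks pericytes, had 40.8 and 39.2 in Mc, against 6184 and 6114 in DF (-6.11 ± 0.28, adjusted p = 1.30e-05). Acta2, smooth muscle actin, had 169.8 and 163 in Mc, against 8748 and 8536 in DF (-5.33 ± 0.23, adjusted p = 8.30e-06). Neither reached 200 in Mc, and the replicates of each lay close together in DF. The contractile genes Myl9, a myosin light chain, and Tagln, transgelin, had 19.1 and 11.7 and 19.3 and 7.4 in Mc, against 3611 and 4220.5 and 2556 and 3515 in DF. Mylk, the kinase of that light chain, had 48.0 and 46.7 in Mc, against 4226 and 4157 in DF, and Myh11, smooth muscle myosin, had 10.6 and 19.7, against 1509 and 2092. Pdgfrb, the receptor that recruits pericytes to vessels, had 7.8 and 0.8 in Mc, against 883 and 2467 in DF (-4.82 ± 0.40, adjusted p = 0.000148). Its level in DF replicate 2 was well above that in DF replicate 1, and 17 of the 22 genes were higher in DF replicate 2, some of them slightly. Des, desmin, was under 100 on all 4 arrays and was not called, but its second probe-set was called lower in Mc, with a difference of -1.82. Several of these genes were not particular to DF and do not mark vessels alone. On the outer root sheath arrays Acta2 had 1938 and 2614 and Tagln 1293 and 1666. On the dermal papilla arrays Acta2 had 1592.5 and 2576, Rgs5 934 and 1983 and Pdgfrb 760 and 1050. Myh11 stayed under 100 on the arrays of both populations.

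Smooth muscle genes are known targets of serum response factor at the CArG box, CC, any 6 of A or T, then GG. Of 18 promoter windows of this list 1 held it (5.56%), against 535 of the 32851 windows of all genes (1.63%). Shares of the other lists ran from 0% to 21.7%, the highest for the immediate early genes described below (5 of 23 windows). These 5 windows belonged to Egr2 and Zfp36 alone, and several of the Egr2 windows overlapped and held the same box. Skeletal muscle genes had 2 of 14 (14.3%), so 1 window does not set this list apart. The 1 window of this list was that of Myl9, where the box, in capitals, began 161 bases before the start site, at chr2:156775248-156775367 on the plus strand (GRCm38.p6).
Myl9: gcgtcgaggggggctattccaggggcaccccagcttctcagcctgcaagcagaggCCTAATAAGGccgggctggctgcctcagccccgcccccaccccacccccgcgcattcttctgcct

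Endothelial genes of blood vessels were lower in Mc in 21 of 33 cases, with none higher and a median difference of -1.25. Cldn5, a tight junction protein of endothelium, had 23.4 and 32.2 in Mc, against 1097 and 901 in DF (-3.75 ± 0.13, adjusted p = 6.05e-06). Kdr, the main VEGF receptor, had 57.8 and 81.5 in Mc, against 1007 and 658 in DF, and Tie1, an endothelial receptor kinase, had 0.6 and 0.9, against 229.7 and 183. Sox18, a factor of vessel formation, had 7.9 and 17.2 in Mc, against 798 and 644 in DF. In each of these the DF arrays exceeded the Mc arrays by at least 5.03-fold. Esam, Ramp2, Aqp1 and Gja4, of endothelial junctions, peptide signaling, water transport and gap junctions, were detected in DF and in no Mc pair, at 10.9, 6.01, 5.59 and 7.32-fold lower in Mc. On the dermal papilla arrays Sox18 had 1469 and 1798, above DF, and Aqp1 had 679 and 1108, against 987 and 729 in DF. Ramp2 had 322 and 489 there, while Cldn5, Kdr, Tie1, Esam and Gja4 stayed under 200. Sox18 is also counted in the dermal papilla list below, so it does not mark vessels alone. Ets1, a factor of endothelium and of many other cells, was the one vessel gene shared, at 707 and 721 in Mc, against 598 and 896 in DF (-0.04 ± 0.21, adjusted p = 0.944), and its sign turned to 0.17 with rescaled arrays and 0.11 after quantile normalization. These genes were measured in DF after removal of CD34-positive cells, and the Cd34 probe-set itself had 21.6 and 34.6 in Mc, against 39.2 and 27.1 in DF.

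Lymphatic endothelial genes were lower in Mc in 7 of 8 cases, with a median difference of -2.93. Reln, a secreted glycoprotein of lymphatic and neural cells, had 35.0 and 44.4 in Mc, against 2108 and 1473 in DF (-4.34 ± 0.18, adjusted p = 8.85e-06). Stab1, a scavenger receptor, had 6.1 and 6.2 in Mc, against 631 and 483 in DF, and Flt4, the receptor of VEGF-C, had 52.5 and 50.1, against 1080.1 and 780.3. With Lyve1, these were the leading members, each absent from the detected genes of Mc and higher in DF replicate 1 than in DF replicate 2. Prox1, the factor that specifies lymphatic fate, had 9.8 and 22.2 in Mc, against 125 and 77.2 in DF (-1.18 ± 0.17, adjusted p = 0.00235), below 200 on all arrays. Pdpn, podoplanin, and Nrp2, a coreceptor of semaphorins and VEGF-C, were not detected in Mc, at 58.3 and 127 for Pdpn and 60.1 and 68.8 for Nrp2, against 325 and 449 and 785 and 533 in DF. On the outer root sheath arrays Pdpn had 263 and 433 and Nrp2 356 and 381, so neither was particular to DF. Lyve1, Reln, Stab1 and Flt4 stayed under 200 on all arrays of the populations other than DF.

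**Figure D4:**
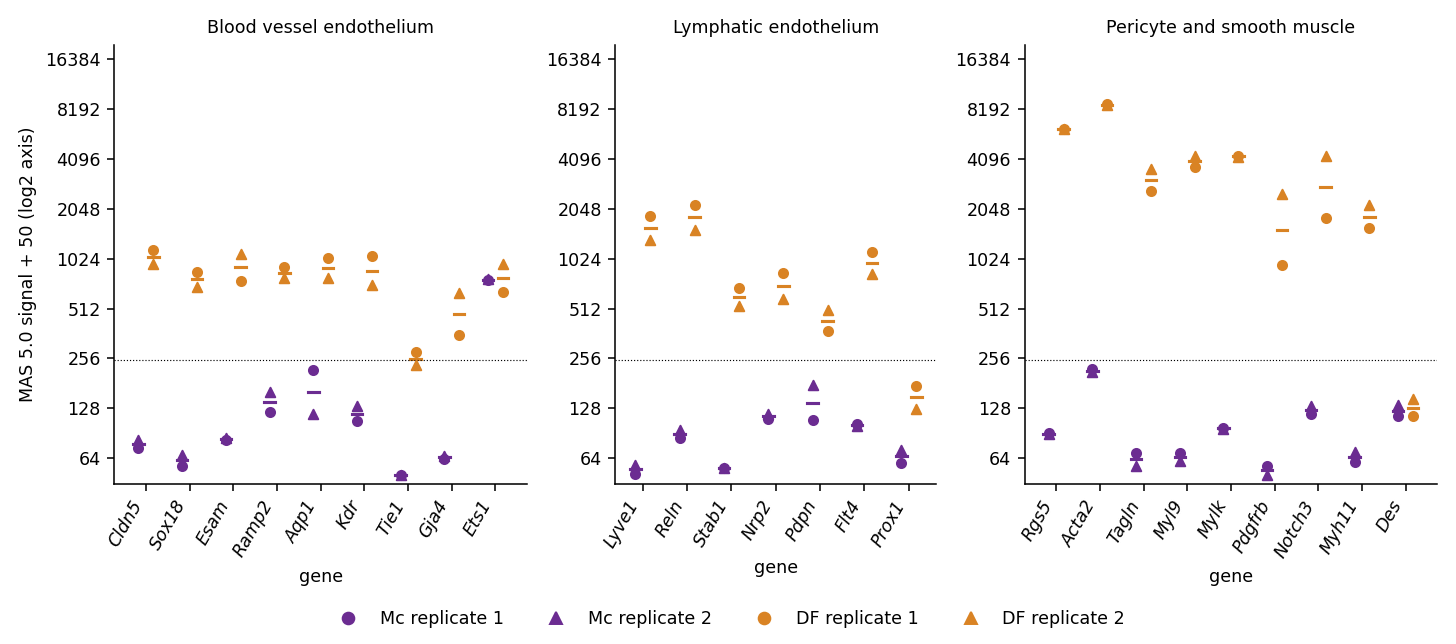
Signal + 50 on a log2 axis for genes of blood vessel endothelium, lymphatic endothelium, and pericytes and smooth muscle, with Mc in purple left of DF in orange, circles for replicate 1, triangles for replicate 2, bars at the mean of the log2 values and a dotted line where the signal is 200. The arrays of Mc and DF are apart for all genes drawn except Ets1, which lies above 500 on all 4 arrays, and Des, which lies under 100 in signal.

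Genes of the dermal matrix were mostly lower in Mc. Of 44 fibroblast and dermal matrix genes, 36 were lower in Mc, none was higher and 8 were not called, with a median difference of -2.77 and a summed signal of 12627 and 8966 in Mc, against 100110 and 94736 in DF. Col6a1, a chain of collagen VI, had 76.8 and 79.0 in Mc, against 7354 and 4864 in DF (-5.56 ± 0.18, adjusted p = 5.05e-06). Postn, periostin, had 128 and 84.0 in Mc, against 5049 and 4671 in DF, and Pcolce, which helps to trim procollagen, had 57.7 and 39.3, against 2652 and 3762. Thy1, a surface protein of fibroblasts, had 40.6 and 62.5 in Mc, against 1888 and 1448 in DF. None of these was detected in Mc, and Bgn, Col6a2 and Col6a3 differed by more than 20-fold as well. Of the 44 genes 10 were detected in Mc, Fn1, Dcn, Timp2, Mmp2 and Col5a2 among them. Col1a2, a chain of collagen I, had 1131 and 819 in Mc, against 12178 and 11643 in DF, and Col3a1, of collagen III, had 1280.3 and 921, against 6123 and 6694, both 5.68-fold or more lower in Mc. Sparc, a matrix protein that melanocytes are also known to make, had 4216 and 2283 in Mc, against 10997 and 11153 in DF, a fold of 3.53. Fbln1 and Sfrp4, secreted proteins of the matrix and of Wnt signaling, leaned toward Mc without a call, at 346 and 393 and 231 and 519 in Mc, against 223 and 169 and 188 and 174 in DF.

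Of the 10 genes with the largest difference toward DF, 4 were outside the vessel and fibroblast lists. Alas2, the heme synthesis enzyme of red cell precursors, had the largest difference of all genes, at 1.8 and 1.9 in Mc, against 3462 and 4266 in DF (-6.23 ± 0.12, adjusted p = 1.02e-06). Of 8 red cell genes on the array 3 were lower in Mc. Hbb-b2, a beta globin, had 2.2 and 2.1 in Mc, against 579 and 666 in DF, while its second probe-set lay under 33 on all 4 arrays and the globins are near-identical copies, so this value is uncertain. The alpha globins Hba-a1 and Hba-a2 lay under 39 on all 4 arrays. Probe-sets annotated to several genes were not read, so these values do not show that alpha globin was absent. Col4a1, a chain of basement membrane collagen, had 93.9 and 97.9 in Mc, against 6282 and 6709 in DF. Crip1, a zinc-binding LIM protein, had 77.1 and 68.1 in Mc, against 5569 and 5453 in DF. Igfbp7, a secreted protein of vessels, had 78.1 and 83.2 in Mc, against 4378 and 5173 in DF. Alas2, Col4a1, Crip1 and Igfbp7 were over 36-fold lower in Mc, and their replicates lay close together in both populations.

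Of 25 ligands and receptors of the niche on the array, 12 were lower in Mc and 3 were higher, Kit among them, by which Mc were sorted. Without Kit, 2 of 24 were higher, Mc1r and Met. Kitl, the ligand of the receptor by which Mc were sorted, had 36.1 and 85.2 in Mc, against 676 and 902 in DF (-2.95 ± 0.28, adjusted p = 0.000296). Cxcl12, a chemokine of stromal cells, had 35.6 and 32.4 in Mc, against 899.7 and 976 in DF, and Pdgfra, a PDGF receptor of fibroblasts, had 14.0 and 0.9, against 609.8 and 658. Met, the receptor of hepatocyte growth factor, had the other direction, with 196 and 287 in Mc, against 48.3 and 21.4 in DF, and its ligand gene Hgf lay under 38 on all 4 arrays.

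Markers of other cells that the gates could hold were read on the same arrays. Of 18 macrophage and lymphocyte genes none was detected in either population, and 1, Mrc1, a mannose receptor also found on lymphatic endothelium, was lower in Mc (31.5 and 37.1 in Mc, against 259 and 176 in DF). Mast cells carry CD117, and of 9 mast cell genes 1, the tryptase Tpsb2, was higher in Mc, at 263 and 365 in Mc, against 32.6 and 11.6 in DF, while its second probe-set and the proteases and receptors Cpa3, Cma1, Mcpt4, Ms4a2 and Fcer1a were under 200 on all arrays and not called. Dermal papilla genes were lower in Mc in 11 of 25 cases, with Sostdc1, a secreted BMP inhibitor, at 2.6 and 1.6 in Mc, against 317 and 447 in DF, though Crabp1 and Rspo2, defining genes of the papilla, lay under 100 on all 4 arrays.

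Epithelial genes set the DF arrays apart from each other. Of 15 keratinocyte genes, 9 were lower in Mc and 1, Cdh1, E-cadherin, was higher, at 473 and 525 in Mc, against 153 and 218 in DF. The basal keratin Krt5 had 84.1 and 98.8 in Mc, against 304 and 845 in DF, and DF replicate 2 exceeded DF replicate 1 in 14 of the 15 genes. None of 14 hair shaft and inner root sheath genes was called, and all of them were higher in DF replicate 2, with a summed signal of 2055 and 2200.2 in Mc, against 1881 and 9639 in DF. Krt35, a keratin of the hair cuticle and matrix, had 129 and 132 in Mc, against 398 and 2338 in DF. With the replicate number or the chip lot as a block, 2 of the 14 were called lower in Mc. Without DF replicate 1, 6 were called lower, and without DF replicate 2, 1 was called higher and none lower. The part of these signals, and of the pigment signals of DF replicate 1, in the other differences was not tested, but without DF replicate 1 there were 548 probe-sets higher and 1667 lower in Mc, and without DF replicate 2 there were 515 and 1539.

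**Figure D5:**
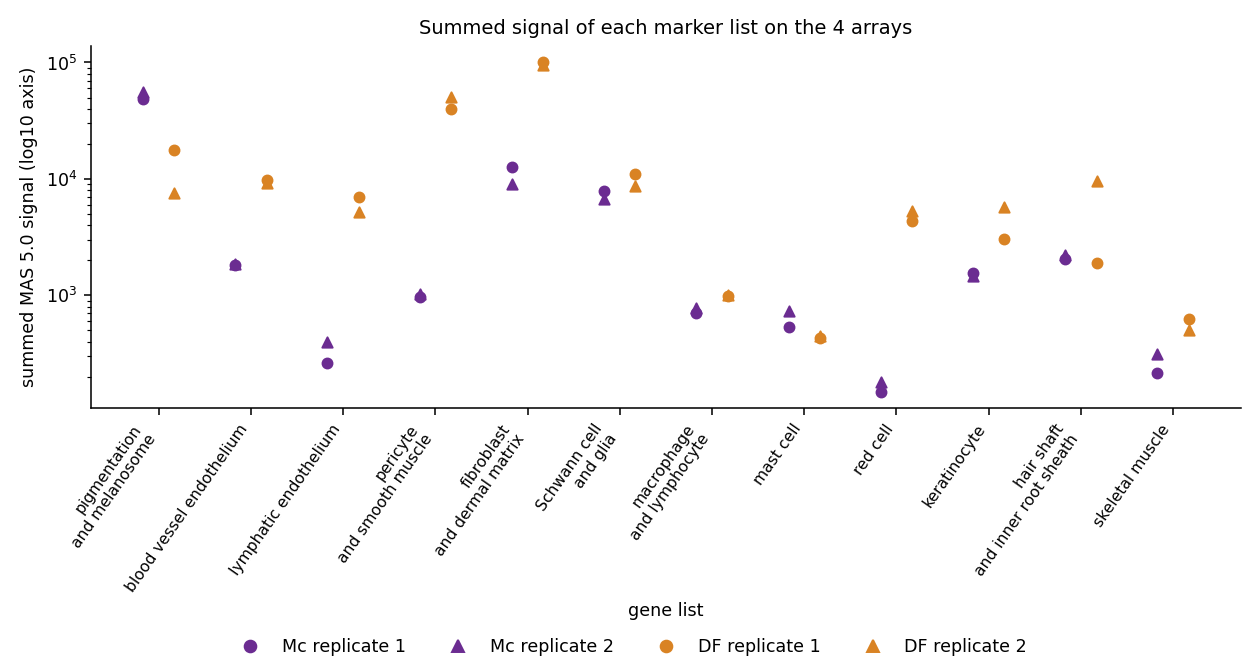
Summed signal of each marker list on a log10 axis, with Mc in purple left of DF in orange, circles for replicate 1 and triangles for replicate 2. The sums of vessel, fibroblast and red cell lists are apart between Mc and DF, those of the glia list are close, and DF replicate 2 is far above DF replicate 1 for the hair shaft list (9639 and 1881) and below it for pigment genes (7614 and 17732).

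Immediate early genes, which cells switch on within minutes of a stimulus, dissociation of tissue included, were lower in Mc in 18 of 23 cases, with a median difference of -1.94. Atf3, a stress-induced repressor, had 81.3 and 108 in Mc, against 1626 and 1527 in DF (-3.50 ± 0.32, adjusted p = 0.000235). Egr1, an early growth response factor, had 528 and 523 in Mc, against 3889 and 4962 in DF, and Zfp36, which destabilises messenger RNA, had 199 and 199.6, against 2371 and 2735. Fos, a subunit of AP-1, was abundant in both, at 1672 and 1697 in Mc, against 5357 and 6566 in DF, a fold of 3.45. Egr3, another member, was not called, and its arrays overlapped, at 67.9 and 106.5 in Mc, against 76.2 and 38.0 in DF. The separate labelings of Mc and DF cannot be told apart from the populations here.

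Lysosomal genes leaned toward Mc, with 11 of 27 higher, 1 lower and a median difference of 0.68. Atp6v1b2, a subunit of the proton pump that acidifies lysosomes and melanosomes, had 1869.5 and 2719.6 in Mc, against 393 and 385 in DF (2.39 ± 0.28, adjusted p = 0.000794). Atp6v0a1, another subunit, had 880.0 and 1316 in Mc, against 254 and 192 in DF, and Npc1, a cholesterol transporter, had 243 and 519.6, against 74.8 and 65.6. Ctsk, cathepsin K, a collagen-degrading protease, was the member lower in Mc, at 34.8 and 44.6 in Mc, against 535 and 528 in DF. Of the 15 that were not called, 11 were detected in both populations, Lamp1 and Lamp2 among them. Without Mc replicate 2, or without DF replicate 2, 7 of the 27 were called higher.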

How the data were processed

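RNA of each sorted population was amplified once and hybridized to Affymetrix MOE430A arrays. The authors ran MAS 5.0 and state a common target for every array, which the deposited values do not show, since their trimmed means run from 164 to 197. The deposited signal is a linear intensity for each probe-set. Present calls, Robust Multi-Chip values and array images were not used here. The deposited array records, of a unit other than a measurement, gave the chip lot. Precision is limited by the number of arrays, since there is no depth to report.

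Of 22690 probe-sets 64 controls were left out. Of the other 22626, the platform annotation gave 20380 a single gene, 691 several and 1555 none, and genes were named only from the first. With limma 3.58.1 (R 4.3.3), log2(signal + 50) of all 10 arrays was fitted with a mean for each of 5 populations and no block, with eBayes moderation (5 residual and 2.56 prior degrees of freedom, median residual SD 0.17) and Benjamini-Hochberg adjustment over all 22626. The fit was tested on simulated data. The members and gene lists were chosen with earlier results of these data known, and lists were only counted. Named by rule were the 4 marker genes, the 10 genes with the largest called difference in each direction, the endothelin genes, the members of the main lists with the largest absolute difference (up to 8 of a main list and 4 of any other), the shared endothelin, glial and vessel genes and the sort genes. Other genes were chosen after their values were seen. Promoter windows came from RefSeq (GRCm38.p6). Alternatives changed the pseudocount, scaling, filter, fold limit, block or fit, or left out a single Mc or DF array. List counts under them were added after the data were seen. Python 3.11.15, numpy 2.4.6, pandas 2.3.3 and matplotlib 3.10.9 were used for reading and drawing.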

Additional observations from a re-analysis of the deposited data

How the results depend on the processing

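The counts of 575 probe-sets higher and 1671 lower in Mc moved most with the call rule. A fold limit of 1.5 gave 1094 higher and 2779 lower, the adjusted p alone gave 1332 and 3345, and a pseudocount of 1 gave 2776 lower. Shared probe-sets numbered 3969 at a signal bound of 200, 6924 at 100 and 1899 at 400. Leaving out each Mc or DF array in turn gave 495 to 592 higher, 1483 to 1667 lower and 4134 to 4215 shared. Each chip lot held 1 Mc and 1 DF array, with the same split as the replicate numbers, and within the lots 615 and 681 probe-sets were at least 2-fold higher and 1771 and 1846 lower, with no test. With the lot as a block there were 572 higher and 1681 lower, and with the replicate number as a block 575 and 1688. Deviations of Mc and DF arrays of the same number correlated at 0.022, and those of the 10 pairs of populations at -0.047 to 0.271, with 5 of them over 0.1, so the numbers were not taken as pairs.

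Of 122 genes named by rule, 92 were called. Of these, 85 kept the call under every alternative in which they were tested, and none turned. Differences within a chip lot had no test, and the signal filter left out some genes, Tie1 and Mrc1 among them. Cebpa, Krt17, Krt5, Ngfr, Prox1, Tnnc2 and Tnnt1 lost the call under at least 1 alternative, and the cause was not tested. Of the 30 not called, 12 were called under some setting, Edn1, Edn3 and Erbb3 among them. Signs that turned all belonged to genes not called. After quantile normalization Cd34 was at 0.091, Ece2 at 0.089, Ermap at 0.043 and Ets1 at 0.11, and Ets1 was at 0.17 with rescaled arrays. Leaving out each array in turn, Cd34 ran from -0.212 to 0.029 (0.014 without DF replicate 1, the highest without Mc replicate 1), Ermap from -0.372 to 0.042, Ets1 from -0.309 to 0.237, Krt27 from -2.13 to 0.073, L1cam from -0.383 to 0.953 and Mcm2 from -0.042 to 1.55. Signals near the background of an array limit what can be seen of Edn1, Edn3, Mag, Dhh and Prox1.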

Other observations

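The insulin-like growth factor system lay almost wholly on the side of DF. Of 10 genes on the array, 7 were lower in Mc and none was higher, with a median difference of -3.43. Igf2, a fetal growth factor, had 50.2 and 19.0 in Mc, against 1659 and 1666 in DF (-4.36 ± 0.18, limma adjusted p = 7.93e-06), and the binding protein genes Igfbp5, Igfbp4 and Igfbp2 had 62.0 and 53.8, 178 and 103 and 35.4 and 36.7 in Mc, against 3024 and 4219, 3904 and 4140.4 and 1858 and 2089 in DF. The second Igfbp5 probe-set was not called. Igf2r, the receptor that clears Igf2, was shared, at 709 and 615 in Mc, against 726 and 734 in DF, and Igf1r, the signaling receptor, lay under 100 on all 4 arrays.

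None of 25 genes of S phase and mitosis was called, with a median difference of -0.37, and 17 were shared, against 2591 of all 12393 genes. Mki67, the proliferation antigen, had 460.3 and 424 in Mc, against 929 and 729.9 in DF (adjusted p = 0.00729, a fold of 1.78), and Pcna, the clamp of DNA polymerase, had 2179.6 and 1913, against 2446 and 2382. Of 9 adipocyte genes 3 were lower in Mc, led by Fabp4, a fatty acid binding protein of fat and capillaries, at 56.6 and 53.5 in Mc, against 1192 and 1770.5 in DF, while the fat cell hormones Adipoq and Lep lay under 11 on all 4 arrays. Of 16 skeletal muscle genes 2 were lower in Mc (12.5%, against 8.7% of all genes), none of them without DF replicate 1, and none of the 16 was detected in either population.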
